A study of Mus musculus with 6 samples.

Results

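The genes described here encode the enzymes that make or burn 2-oxoglutarate (α-ketoglutarate, AKG), the metabolite injected in the study, and the carrier that moves it across the inner mitochondrial membrane. They were chosen by symbol, as 9 of the 22033 named genes in the deposited table, and all 9 had enough counts to be tested among 13117 genes. Each library held RNA of heart muscle cells isolated by Langendorff perfusion from wild-type mice. The AKG group (3 libraries) came from mice given 300 mg per kg of AKG by injection each day for 2 weeks, and the Control group (3 libraries) from mice given phosphate-buffered saline on the same schedule. The labels name postnatal day 21 without saying whether injections began or ended then, give no sex or strain, and do not say whether a library was 1 mouse or a pool. The p-values therefore speak only of the spread among these 6 libraries, which may be technical.

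2-Oxoglutarate stands in the middle of the tricarboxylic acid cycle. The NAD-linked isocitrate dehydrogenase of mitochondria, built from the catalytic subunit Idh3a and the subunits Idh3b and Idh3g, makes it in the forward direction of the cycle. The NADP-linked enzymes Idh2 (mitochondria) and Idh1 (cytosol and peroxisomes) interconvert isocitrate and 2-oxoglutarate with NADPH, and glutamate dehydrogenase (Glud1) interconverts it with glutamate. Ogdh, or its relative Ogdhl, is the first enzyme of the complex that oxidises 2-oxoglutarate to succinyl-CoA. Slc25a11 exchanges it for malate, a step of the malate-aspartate shuttle that carries reducing equivalents into mitochondria. The heart depends on this cycle for most of its energy.

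Totals ranged from 14402876 to 17797368 counts per library. Mitochondrially encoded transcripts took 38.3 to 43.1% of counts in Control and 25.7 to 31.4% in AKG. The part of this share in the difference between scalings was not tested. With the trimmed mean of M-values (TMM) the median log2 fold change over all genes was 0.00, and scaling by total counts instead put it at 0.45. Levels below are CPM, counts relative to the TMM-scaled library size, and a rise or fall is relative to the bulk of genes, except where FPKM (relative to transcript length and to the library's fragments, as deposited) or a ratio within a library is named. The 12 heart muscle cell markers, Myh6 and Tnnt2 among them, were present in every library and summed to 69365 to 75099 CPM in Control and 36662 to 40836 CPM in AKG. Of these 12 markers, 10 fell and 0 rose, with a median log2 fold change of -0.73. In the total-count scaling 7 fell and 2 rose, and the median was -0.28. In such bulk samples fewer cells of a type and less RNA per cell cannot be told apart. Sums of atrial markers were 359 and 220 CPM in AKG 1 and AKG 3, 7.58 CPM in AKG 2 and 6.40 to 12.05 CPM in the Controls. Of the markers of other cells, 6 of 8 for smooth muscle cells and pericytes fell and 1 rose (2231 to 2445 CPM summed in Control, 1317 to 1510 in AKG), 4 of 8 for macrophages fell, and 4 of 6 for neutrophils rose (0.736 to 1.497 CPM summed in Control, 5.28 to 12.1 in AKG). Endothelial and fibroblast markers each had 3 of 8 higher and 2 lower. Smooth muscle and pericyte markers under total-count scaling had 2 higher and 2 lower, macrophage markers 1 and 2, endothelial markers 6 and 0, fibroblast markers 4 and 0 and neutrophil markers 4 and 0. Over all 13117 tested genes 25% were higher and 25.2% lower under TMM. Under total-count scaling 7431 of them were higher and 1196 lower. The part of these cell types in the members' changes was not tested.

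Genes for 2-oxoglutarate breakdown and transport were lower after AKG, the 3 subunits of the NAD-linked producer were lower to unequal degrees, and Idh2, the most abundant member by FPKM, was higher. In edgeR's quasi-likelihood test 7 of the 9 members fell and 1 rose at an adjusted p under 0.05. Over all tested genes 25.2% were lower, 25% higher and 50.2% either. The median log2 fold change of the members was -0.72, beside 0.00 over all tested genes. It was -0.73 for the 12 heart muscle cell markers and -0.72 for 12 other enzymes of the cycle. Over the 50 other tested genes around 2-oxoglutarate, those enzymes included, it was -0.49. For 8 of the 9 members the CPM values of the groups did not overlap, with AKG below in 7 and above in 1, as was so for 59.2% of all tested genes (29.9% below, 29.4% above). Scaled by total counts, 5 members were lower and 2 higher, because Idh3g and Idh1 no longer differed past the threshold and Glud1 was then higher. In that scaling 7431 of the 13117 tested genes were higher and 1196 lower. Idh2 was higher and Ogdh, Ogdhl, Slc25a11 and Idh3a were lower under each of the scalings and units tried. With AKG 2 alone, the library low in atrial transcripts, 6 members were lower and 1 higher, and with atrial transcripts as a covariate 5 and 1.

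**Figure D1:**
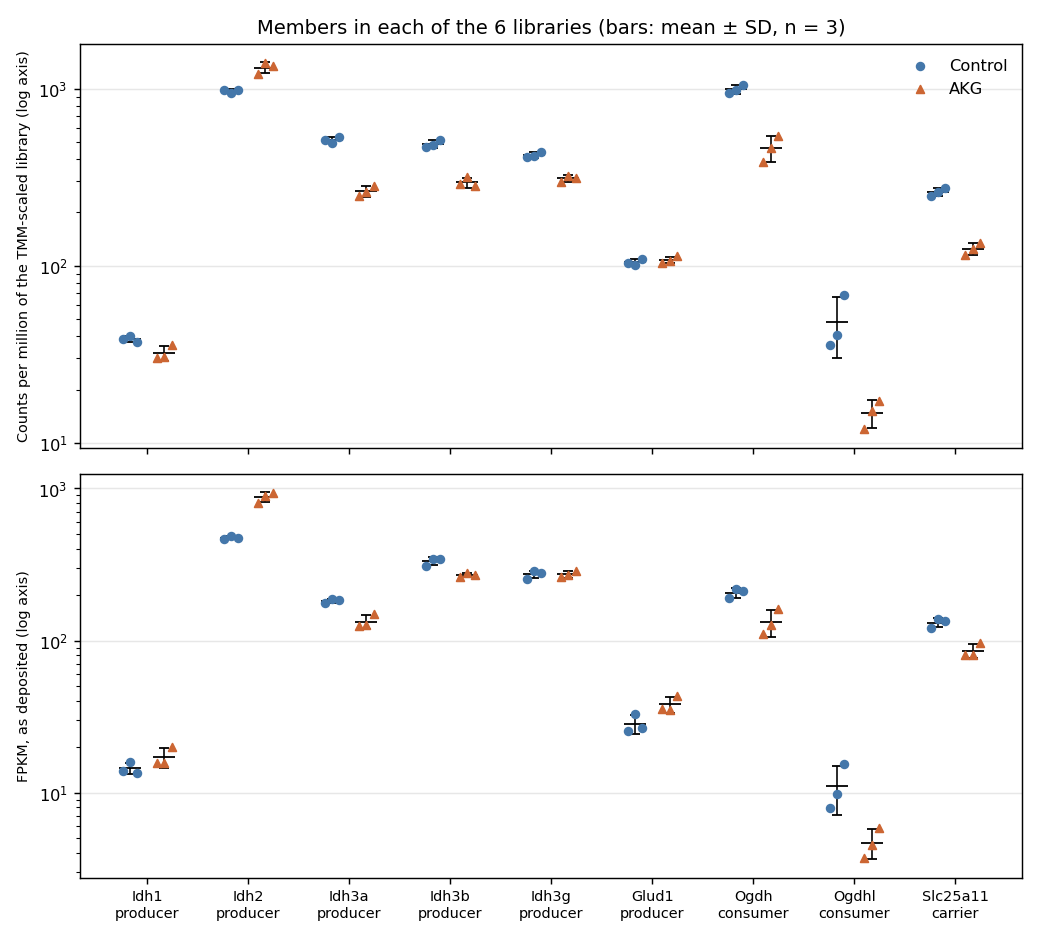
Level of each of the 9 members in each library, as CPM (upper panel) and FPKM (lower panel), both on a log axis. Points are libraries (circles Control, triangles AKG) and bars give mean ± SD over 3 libraries. Idh2 is the highest member by FPKM in all 6 libraries, and its AKG values lie above the Control values in both units.

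Among the producers, Idh2 rose. Its enzyme is the main source of NADPH made by isocitrate oxidation in mitochondria, and its product is also 2-oxoglutarate. Idh2 stood at 978, 942 and 981 CPM in Control 1, 2 and 3 and at 1209, 1393 and 1335 CPM in AKG 1, 2 and 3. Each AKG library lay above each Control library, with a gap wider than the spread inside either group. The log2 fold change was 0.44 (SE 0.087, edgeR quasi-likelihood adjusted p = 0.000884), or 0.88 when scaled by total counts. On the FPKM scale the same libraries held 466, 489 and 471 in Control and 805, 893 and 933 in AKG. Of all tested genes, 80% had a lower log2 fold change than Idh2.

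The 250 bases before the RefSeq start of Idh2 (GRCm38.p6, chr7:80115351-80115600, minus strand) are shown because Idh2 was the only member that rose with TMM scaling. Capitals mark matches to the GC box GGGCGG on either strand.
Idh2: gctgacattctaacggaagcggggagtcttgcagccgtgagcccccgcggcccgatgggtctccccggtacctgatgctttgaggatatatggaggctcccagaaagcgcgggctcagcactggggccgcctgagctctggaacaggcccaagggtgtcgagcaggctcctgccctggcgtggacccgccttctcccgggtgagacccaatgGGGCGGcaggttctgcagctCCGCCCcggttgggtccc
The window held 67.2% G and C, beside a median of 52.4% over all promoter windows, and 2 GC boxes, a motif present in 32.7% of windows. GC boxes were not particular to Idh2: 6 of the 8 members with a window had them. Among these were Ogdh, Ogdhl and Slc25a11, which were lower, and Glud1, whose window held 82.0% G and C. The motifs CCGGAAG (ETS factors), CACGTG (E-box), AAGATGGC (YY1), TNAAGGTCA (estrogen-related receptors) and that of NRF1, searched on both strands, had no match in it.

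The 3 subunits of NAD-linked isocitrate dehydrogenase fell, the catalytic one most. Idh3a, which carries the active site, stood at 510, 494 and 531 CPM in Control and at 247, 260 and 281 CPM in AKG. The highest AKG library was far below the lowest Control library, and the log2 fold change was -0.96 (SE 0.082, edgeR adjusted p = 7.31e-07). Idh3b stood at 469, 480 and 515 CPM in Control and at 288, 317 and 281 CPM in AKG, a log2 fold change of -0.72 (SE 0.083, edgeR adjusted p = 9.81e-06). Idh3g, a regulatory subunit encoded on the X chromosome, stood at 409, 419 and 440 CPM in Control and at 298, 323 and 312 CPM in AKG. Its groups did not overlap either, with the smallest of the 3 changes at -0.44 (SE 0.078, edgeR adjusted p = 0.00035). Under total-count scaling the changes were -0.52 for Idh3a, -0.28 for Idh3b and 0.00 for Idh3g, the last with an edgeR adjusted p of 0.998.

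The FPKM of Idh3g showed the same thing, at 255, 285 and 276 in Control and 260, 271 and 285 in AKG, with groups that overlapped. Y-linked transcripts summed to 0.311 CPM in Control 2, to 168 and 176 CPM in the other Controls and to 39.01 to 89.2 CPM in AKG. In Control 2 Idh3g lay between the other Controls as CPM and above them as FPKM.

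Because a ratio of 2 genes within 1 library does not depend on how the library totals are scaled, the subunits were also set against each other. In Control libraries the FPKM of Idh3a was 0.692, 0.655 and 0.670 of that of Idh3g, and in AKG libraries 0.478, 0.465 and 0.521. Every AKG ratio was below every Control ratio, a change of -0.46 on the log2 scale. The ratio of Idh3b to Idh3g went from 1.22 ± 0.0143 to 0.998 ± 0.0409 (mean ± SD, n = 3), again with no overlap. The ratio of Idh3a to Idh3b overlapped, with Control values from 0.540 to 0.568 and AKG values from 0.452 to 0.548. From counts in place of FPKM the same ratio did not overlap, at 1.03 to 1.09 in Control and 0.820 to 1.0 in AKG, so it depended on the transcript lengths behind FPKM. Across the 12 ratios compared, the groups were apart for 9 by FPKM and for 10 by counts. The share of other gene pairs that are apart was not computed. Of single tested genes, 59.2% had groups that did not overlap by CPM. Exact two-sided permutation tests with 3 libraries against 3 cannot give a p under 0.1, and the 9 ratios apart by FPKM had that p (0.133 after Benjamini-Hochberg adjustment over the 12).

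**Figure D2:**
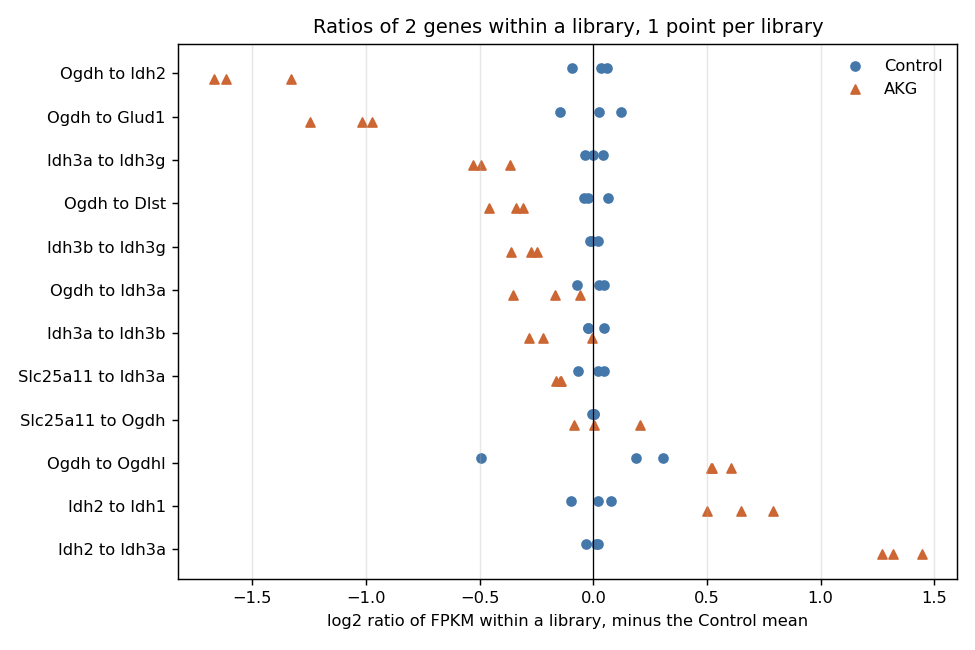
Ratio of the FPKM of 2 genes within each library, as log2 minus the Control mean, for 12 pairs. Each point is 1 library. Idh2 to Idh3a and Ogdh to Idh2 differ most between groups, and Slc25a11 to Ogdh overlaps.

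Idh3g and Ssr4, which encodes a subunit of the translocon-associated protein complex, are transcribed away from each other from start sites that RefSeq places 125 bases apart. The stretch between them (GRCm38.p6, chrX:73786898-73787022, minus strand, read toward Idh3g) is shown because both genes fell with TMM scaling. Capitals mark a match to the ETS motif CCGGAAG.
Idh3g: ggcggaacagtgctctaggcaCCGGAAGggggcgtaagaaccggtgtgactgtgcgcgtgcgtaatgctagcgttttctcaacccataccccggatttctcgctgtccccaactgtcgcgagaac
Ssr4 had a log2 fold change of -0.44 (SE 0.094, edgeR adjusted p = 0.0015), from 30.07 to 22.1 CPM, beside -0.44 for Idh3g under TMM. The difference between them was not tested. Srpk3, the neighbour of Idh3g on its other side, was at -0.24 (edgeR adjusted p = 0.0961). The ETS motif was present in 6.91% of all promoter windows and in those of 2 members, Idh3g and Glud1. The YY1 motif AAGATGGC was present in 1.56% of all windows and, among the members, in that of Idh3g. It begins 130 bases before the Idh3g start, across the far edge of the stretch shown. The NRF1 and estrogen-related receptor motifs matched in none of the 14 windows found for 8 members, beside 0.782% and 1.14% of all windows. Idh3a had no entry in the promoter table.

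The remaining producers were far less abundant. Glud1 stood at 104, 101 and 109 CPM in Control and at 104, 106 and 113 CPM in AKG. These groups overlapped, and the log2 fold change was 0.05 with a 95% interval of -0.11 to 0.20 (edgeR adjusted p = 0.597). Under total-count scaling it was higher, by 0.49 (edgeR adjusted p = 0.000147). Idh1 stood at 38.5, 40.3 and 37.2 CPM in Control and at 30.07, 30.6 and 35.6 CPM in AKG. The log2 fold change of Idh1 was -0.27 (SE 0.091, edgeR adjusted p = 0.0246), and its direction turned to 0.17 under total-count scaling. The Idh1 call did not hold by DESeq2 (adjusted p = 0.0576), nor in edgeR with atrial transcripts as a covariate (0.0768) or without Control replicate 1 (0.0595), Control replicate 2 (0.0884), AKG replicate 1 (0.083) or AKG replicate 2 (0.0876).

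The consumers fell. Ogdh, the dehydrogenase subunit that binds thiamine pyrophosphate and starts the breakdown of 2-oxoglutarate, stood at 940, 986 and 1046 CPM in Control and at 386, 460 and 537 CPM in AKG. No AKG library came near the Control range, though AKG varied more (coefficient of variation 16.4% against 5.36%). The log2 fold change was -1.10 (SE 0.112, edgeR adjusted p = 3.96e-06), or -0.66 under total-count scaling. Of all tested genes 5.12% had a lower log2 fold change than Ogdh.

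Ogdhl, the relative of Ogdh that is best known from brain, was a minor transcript, at 35.5, 40.4 and 68.8 CPM in Control and 11.9, 15.2 and 17.3 CPM in AKG. Control 3 was the highest Ogdhl library and the AKG values lay below all Controls. Its log2 fold change of -1.70 was the most negative of the members and had the widest error (SE 0.311, edgeR adjusted p = 0.00708). With atrial transcripts as a covariate it was -1.44 (SE 0.527, edgeR adjusted p = 0.12), and for AKG 2 alone -1.66 (SE 0.666, edgeR adjusted p = 0.208). Ogdhl made up 4.01 to 6.77% of the summed consumer FPKM in Control and 3.28 to 3.48% in AKG, so Ogdh set the consumer sum in both groups.

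The carrier Slc25a11 fell, from 248, 260 and 276 CPM in Control to 115, 124 and 134 CPM in AKG. The spread inside each group was small beside the gap, and the log2 fold change was -1.07 (SE 0.082, edgeR adjusted p = 2.89e-07), or -0.63 under total-count scaling. The FPKM ratio of Slc25a11 to Ogdh was 0.633 to 0.638 in Control and 0.600 to 0.735 in AKG, with overlapping groups (exact two-sided permutation p = 0.7). The RefSeq models of Slc25a11 and of Rnf167, a ubiquitin ligase gene on the opposite strand, overlap by 302 bases, and reads there cannot be assigned without strand. Rnf167 stood at 43.4 and 45.2 CPM with a log2 fold change of 0.06 (edgeR adjusted p = 0.595). The models of Idh3b and Nop56, a nucleolar protein gene, overlap by 5 bases, and Nop56 had a log2 fold change of -1.03.

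**Figure D3:**
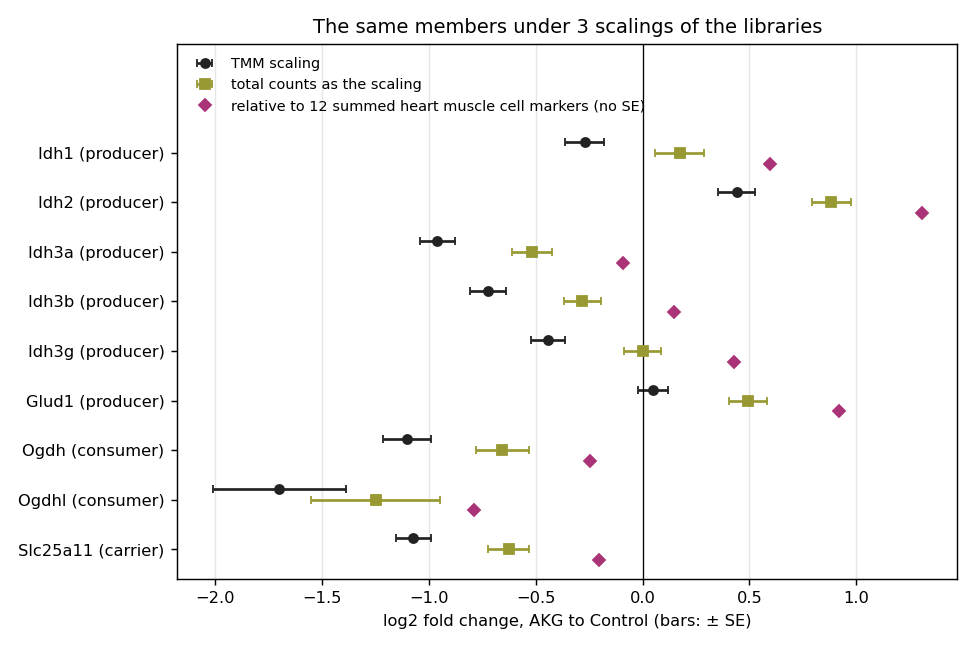
The log2 fold change of each member under TMM scaling, under total-count scaling (both ± SE from edgeR) and relative to the sum of 12 heart muscle cell markers (no SE). Idh2 lies above 0 and Ogdh, Ogdhl, Slc25a11 and Idh3a lie below 0 under all 3, while Idh1, Idh3b and Idh3g change side.

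Set against the summed heart muscle cell markers, a comparison added after the values had been seen, the members divided differently. Per 1000 CPM of these markers Idh2 rose from 13.06 to 13.93 CPM in the Control libraries to 32.97 to 34.1 CPM in the AKG libraries, a log2 difference of 1.31. Glud1 differed by 0.92, Idh1 by 0.60, Idh3g by 0.43 and Idh3b by 0.15, with every AKG library above the Controls. Ogdh (-0.25, groups overlapping), Slc25a11 (-0.20), Idh3a (-0.09) and Ogdhl (-0.79) were lower. The markers themselves changed with AKG, and their part in the members' changes was not tested. Myh6 was the largest part of the sum, with means of 27743 CPM in Control and 12427 CPM in AKG. Its log2 fold change was -1.16, beside a median of -0.73 over the markers under TMM. Idh3b, at -0.72 under TMM, was close to that median. These differences thus hold for the sum, and other ways of combining the markers were not tried.

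Among producer transcripts the share of the NADP-linked Idh2 was larger in AKG and that of the NAD-linked subunits smaller. Idh2 made up 37.3, 36.1 and 35.8% of the summed FPKM of the 6 producers in Control and 53.5, 55.1 and 54.8% in AKG. The share of Idh3a went from 14.0 ± 0.202% to 8.26 ± 0.475% (mean ± SD, n = 3), that of Idh3b from 25.5 ± 0.569% to 16.9 ± 0.827% and that of Idh3g from 20.8 ± 0.333% to 16.9 ± 0.317%. No share of these 4 genes overlapped between groups, while those of Glud1 and Idh1 did. Shares are parts of 1 sum, so a larger share of Idh2 leaves a smaller one for the other producers together. The FPKM of Idh3g itself had a mean of 272 in both groups, which overlapped. As a share of summed CPM, Glud1 did not overlap, at 4.06 to 4.16% in Control and 4.38 to 4.80% in AKG. The Idh1 share overlapped in CPM as well. The FPKM ratio of Idh2 to Idh3a was 2.64, 2.62 and 2.54 in Control and 6.48, 7.08 and 6.28 in AKG, 2.54-fold higher on the geometric mean. The ratio of Idh2 to Idh1 went from 33.03 ± 2.01 to 51.8 ± 5.21.

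Producer transcripts per consumer transcript were higher in every AKG library. The producer sum counts each subunit of the NAD-linked isocitrate dehydrogenase as a gene of its own. The consumer sum holds Ogdh and Ogdhl without their complex partners Dlst and Dld. The ratio therefore compares transcripts and is not a balance of whole enzymes. Summed FPKM of the producers was 1249 to 1353 in Control and 1504 to 1702 in AKG, and that of the consumers 198 to 228 and 113 to 167. The producer sum was higher in FPKM and lower as CPM (2532 ± 71.9 to 2321 ± 131 CPM), so only the ratio is free of the scaling. There were 6.32, 5.97 and 5.77 producer FPKM per consumer FPKM in Control and 13.3, 12.4 and 10.2 in AKG. Without Idh2 the ratio was 3.70 to 3.96 in Control and 4.61 to 6.16 in AKG, so the groups stayed apart with a smaller gap. Ogdh to Idh3a, by contrast, overlapped, at 1.07 to 1.16 in Control and 0.883 to 1.08 in AKG (exact two-sided permutation p = 0.2).

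**Figure D4:**
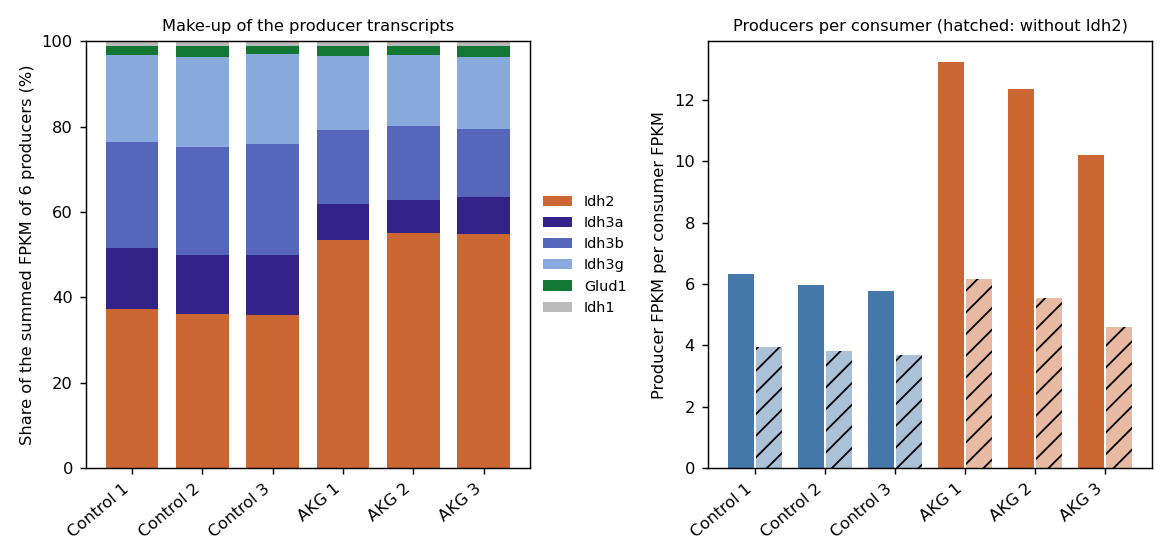
Left, the share of each producer in the summed FPKM of the 6 producers, per library. Right, summed producer FPKM per summed consumer FPKM, with all 6 producers (solid bars) and without Idh2 (hatched bars). Idh2 holds 35.8 to 37.3% in Control and 53.5 to 55.1% in AKG.

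By FPKM, which corrects for transcript length, Idh2 was the highest member in all 6 libraries, Slc25a11 the sixth and Glud1 the seventh. Idh3b was second except in AKG 3, where Idh3g (285 FPKM) stood above it (272 FPKM). The means of Idh3b and Idh3g in AKG, 271 ± 7.85 and 272 ± 12.7 FPKM, did not differ beyond their spread, and neither did those of Ogdh and Idh3a in AKG (132 ± 26.2 and 133 ± 13.6 FPKM). Idh1 and Ogdhl in Control (14.4 ± 1.24 and 11.1 ± 3.91 FPKM) overlapped too, and in AKG Ogdhl was at 4.69 ± 1.06 and Idh1 at 17.1 ± 2.54 FPKM.

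The deposited counts and FPKM together give the transcript length that the authors' estimate assigned to each gene. This apparent length was 1.74 kb for Idh2 and 1.33 kb for Idh3g in all 6 libraries. For Idh3a it was 2.40 kb in the 3 Controls and 2.30 or 2.31 kb in the 3 AKG libraries, with no overlap. For Glud1 it was 3.39 kb in 4 libraries, 3.18 kb in AKG 3 and 2.76 kb in Control 2. The FPKM of Glud1 was the highest of the Controls in Control 2 (33.0, beside 25.5 and 26.8), and its CPM there was the lowest. Idh1 lay at 2.30 kb in Control and 2.17 to 2.24 kb in AKG. Apparent lengths are model estimates of the isoform mix and carry no test here.

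Over the 6 libraries the Pearson correlation of log2 CPM was 0.998 between Slc25a11 and Idh3a and 0.979 between Ogdh and Idh3g. Idh1 followed the other falling members less closely, with 0.785 to Idh3b and 0.922 to Ogdh. Genes with the most similar patterns were Mylip and Ppp2r2d for Idh2 (0.999 and 0.997), Ifi203 and Trim72 for Ogdh (0.9995 and 0.9991) and Snrpn and Slc25a42 for Slc25a11 (0.9998 and 0.9996). With 2 groups of 3 libraries far apart, such values are common: 8.27% of tested genes had a correlation over 0.95 with Ogdh and 4.22% with Idh2, but 0.0458% with Glud1.

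The 3 partners of Ogdh in its complex fell as well, beside -1.10 for Ogdh itself. Dlst, the succinyltransferase core, went from 360 ± 8.43 to 218 ± 29.3 CPM (log2 fold change -0.72) and Dld, the lipoamide dehydrogenase shared with sister complexes, from 235 ± 8.54 to 153 ± 20.5 CPM (-0.62). Mrps36, the small adaptor subunit, went from 49.05 to 22.3 CPM (-1.13). The ratio of Ogdh to Dlst was 1.79 to 1.92 in Control and 1.34 to 1.48 in AKG, with no overlap. Dhtkd1, the 2-oxoadipate dehydrogenase of lysine breakdown and a relative of Ogdh, rose from 7.14 to 11.5 CPM (0.68, edgeR adjusted p = 0.00541). Under total-count scaling 2 of these 4 genes were lower and 1 higher. Their median moved from -0.67 to -0.23, and that of all tested genes from 0.00 to 0.45.

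Of 60 other genes listed around 2-oxoglutarate, 50 had enough counts to be tested, and 7 rose, 29 fell and 14 did not pass the edgeR threshold, with a median of -0.49. Scaled by total counts, 16 rose and 17 fell, and the median was -0.04, beside 0.45 over all tested genes. Of 12 other enzymes of the cycle, 9 fell and 0 rose. The falls with the smallest p were those of the succinate dehydrogenase subunits Sdhc (303 to 160 CPM) and Sdhb (540 to 245 CPM), the fumarase gene Fh1 (386 to 238 CPM) and the succinyl-CoA ligase subunit Sucla2 (330 to 196 CPM). The GTP-linked ligase subunit Suclg2 stood at 75.7 and 77.1 CPM, the catalytic subunit Sdha of succinate dehydrogenase at 655 and 611 CPM and Aco1 at 33.8 and 32.4 CPM, and none of these 3 passed. Scaled by total counts, 7 of the 12 were lower and 3 higher. The median of the list was -0.72. Of 8 genes of the related pyruvate and branched-chain dehydrogenase complexes 7 fell and 0 rose, among them Pdhx (82.0 to 40.05 CPM), Pdhb (512 to 268 CPM) and Dlat (279 to 136 CPM), and 3 were lower and 1 higher under total-count scaling.

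**Figure D5:**
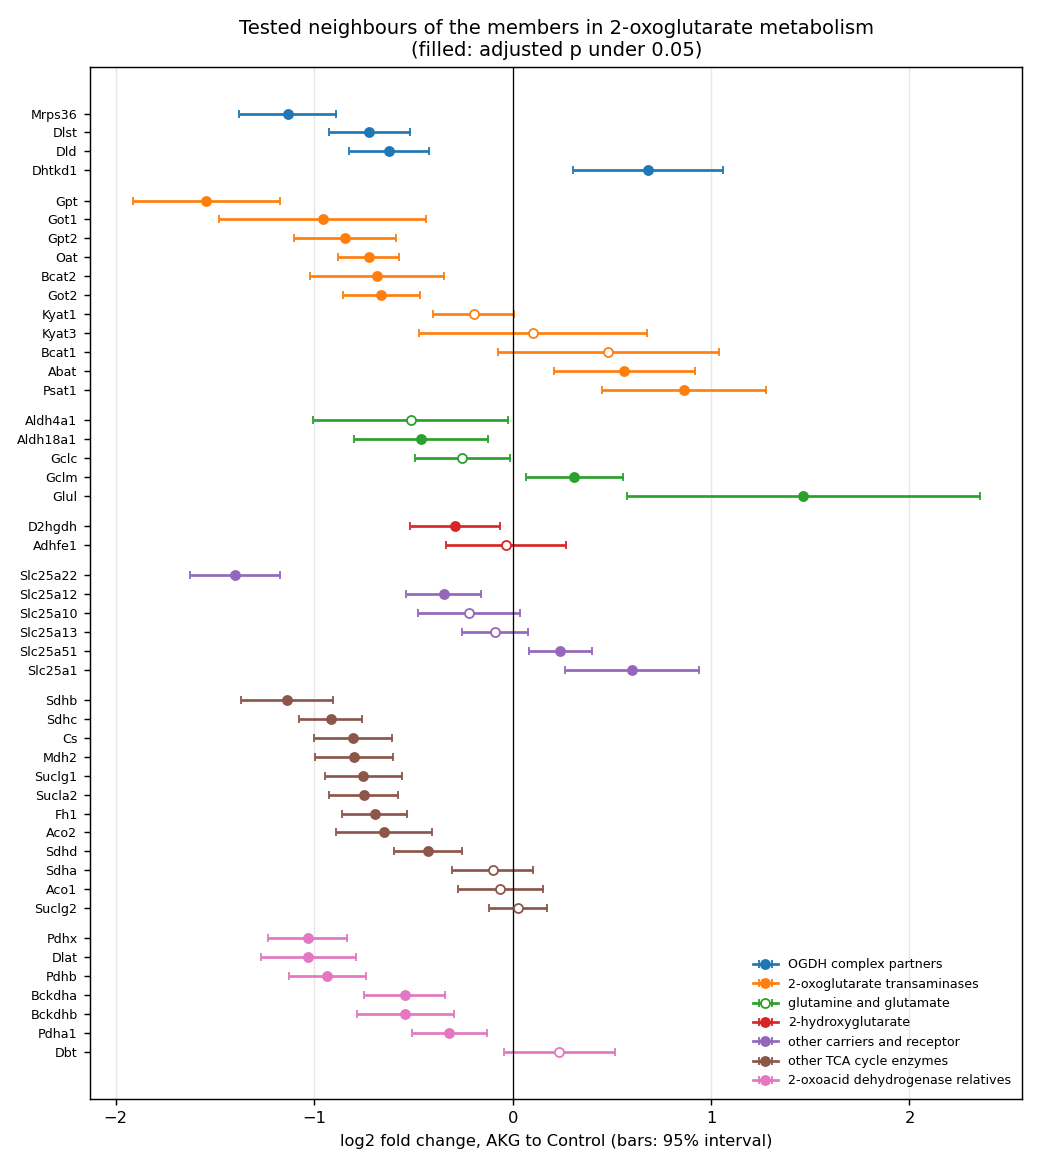
The log2 fold change (AKG to Control) with its 95% interval for most of the other tested genes around 2-oxoglutarate, grouped by role. Filled points passed an edgeR adjusted p of 0.05. Most cycle enzymes lie left of 0, and Glul, Psat1, Dhtkd1, Slc25a1, Abat, Gclm and Slc25a51 lie right of 0 and are filled.

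Transaminases move the amino group of another amino acid onto 2-oxoglutarate, which becomes glutamate, or run in reverse. Of 11 tested, 6 fell and 2 rose. The alanine transaminase genes Gpt (15.0 to 5.14 CPM, log2 fold change -1.54) and Gpt2 (-0.84), the ornithine transaminase Oat (105 to 63.7 CPM) and the mitochondrial aspartate transaminase Got2 (724 to 457 CPM) had the smallest p-values among the falls. Psat1, of serine synthesis, rose from 5.21 to 9.52 CPM and Abat, of GABA breakdown, from 5.35 to 7.91 CPM. Scaled by total counts, 3 were higher and 3 lower, and with atrial transcripts as a covariate 0 were higher and 4 lower.

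On the glutamate side the largest change was a rise of Glul, the glutamine synthetase, at 125, 144 and 158 CPM in the Controls and 232, 428 and 519 CPM in AKG. Its log2 fold change was 1.47 with a wide error (SE 0.337, edgeR adjusted p = 0.0208). Of the 7 tested genes of glutamine and glutamate, 2 rose (Glul and Gclm), 1 fell (Aldh18a1) and 4 did not pass, Glud1 among them. This list depended on single libraries: 0 were higher without Control replicate 1, Control replicate 3 or AKG replicate 2, so that the call on Glul was lost, and 1 without Control replicate 2 or AKG replicate 3. Without Control replicate 2, 0 were lower, and without AKG replicate 3, 3 were. Scaled by total counts, 4 were higher and 0 lower. Among genes of 2-hydroxyglutarate metabolism, D2hgdh fell (31.5 to 25.8 CPM), and Adhfe1 (42.4 and 41.3 CPM) did not pass. The D2hgdh call was lost by DESeq2, with atrial transcripts as a covariate and without Control replicate 1, Control replicate 3, AKG replicate 1 or AKG replicate 2. Under total-count scaling 2 of the 3 genes of this list rose and 0 fell, and its median was 0.41 in place of -0.03. Over all 13117 tested genes the median in that scaling was 0.45, with 7431 higher and 1196 lower.

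Of the 7 malate-aspartate shuttle genes, Slc25a11 included, 6 fell and 0 rose. Mdh1 went from 1446 ± 56.1 to 770 ± 56.6 CPM, Mdh2 from 1205 ± 77.8 to 693 ± 49.7 CPM and the aspartate-glutamate carrier Slc25a12 from 109 ± 9.51 to 85.7 ± 7.8 CPM. Its relative Slc25a13 stood at 50.01 and 47.05 CPM and did not pass. Scaled by total counts, 3 were lower and 1 higher.

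Among 12 other carriers, transporters and the receptor for 2-oxoglutarate, 6 were tested. The glutamate carrier Slc25a22 fell from 79.2 to 30.02 CPM (log2 fold change -1.40, edgeR adjusted p = 3.37e-07) and Slc25a12 fell, while the citrate carrier Slc25a1 (7.61 to 11.5 CPM) and the NAD carrier Slc25a51 (61.6 to 72.8 CPM) rose. Without Control replicate 1, 1 of these 6 was higher, and scaled by total counts 3 were higher and 1 lower. The plasma membrane transporters Slc13a2 and Slc13a5 had 0 counts in all 6 libraries, which allows up to 0.166 to 0.221 CPM per library for a floor of 3 counts. Slc13a3 had 6 counts over the Controls and 9 over AKG. The receptor Oxgr1 had 1 count over the Controls and 5 over AKG.

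In the authors' deposited table, whose log2 fold change is the ratio of mean FPKM, Idh2 was listed at 0.88, Ogdh at -0.64, Slc25a11 at -0.61, Idh3a at -0.46 and Idh3g at 0.00. The authors' deposited false discovery rate for Idh3g was 4.43e-08 beside that fold change of 0.00, and the DESeq2 fit made here from counts gave -0.44 with an adjusted p of 4.01e-08.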

How the data were processed

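Per the file headers, each of the 6 libraries has 1 count column and 1 FPKM column. The deposited counts were whole numbers and were treated as estimated counts that the authors had rounded. The submitters' processing notes name HISAT2 2.1.0, RSEM 1.2.19 and DESeq2 1.20.0, without their roles, and the sources used here name neither genome build nor annotation. FPKM values, their group means, a log2 fold change and a p-value with its false discovery rate were deposited by the authors. Rows without a symbol (30) held at most 0.000112% of the counts of a library and were left out, and Nnt, present on 2 rows, was left out of the lists. Some listed genes are counted but not reported here by name.

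Counts were fitted in R 4.3.3 with edgeR 4.0.16 (filterByExpr with a minimum count of 10 and a minimum total of 15, TMM, robust quasi-likelihood test) and p-values adjusted by Benjamini-Hochberg across 13117 genes (calls at under 0.05). Each SE was obtained from the fold change and the square root of its F statistic. The script was tested on simulated data. Ratios within a library were tested by exact permutation. Promoter sequences came from RefSeq (GRCm38.p6), with windows for 8 of the 9 members. The genes and lists were chosen with earlier results of these data known. All 9 members are named; of other lists, up to 4 tested genes with the smallest p, and genes beyond these were chosen after their values were seen. Alternatives were other scalings, filters and tools (DESeq2 1.42.0, limma 3.58.1), FPKM with pseudocounts of 1 and 0.1, a replicate block, an atrial covariate, AKG 2 alone and each library left out. The comparison with heart muscle cell markers was added later. A floor of 3 counts equals 0.166 to 0.221 CPM, for counting error only.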

Additional observations from a re-analysis of the deposited data

How the results depend on the processing

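All 9 members kept their direction under the other scalings of edgeR (DESeq2 size factors, upper quartile), the other filters, no robust estimates, limma-voom, DESeq2, the replicate block and each library left out. Over all genes, 3281 were higher and 3309 lower, 7431 and 1196 when scaled by total counts, 6732 and 1068 by limma on log2(FPKM + 1), 6725 and 1067 on log2(FPKM + 0.1), 6895 and 1141 on log2(FPKM + 1) without a filter, and 2071 and 2190 with the atrial covariate. In the first 4 of these alternatives 2 members were higher. Idh1 turned to 0.17 with total counts as the scaling, 0.22 on log2(FPKM + 1) with or without the filter and 0.23 on log2(FPKM + 0.1), and Idh3g to 0.000218, 0.000445 (with or without the filter) and 0.000448. Relative to the heart muscle cell markers Idh1 was at 0.60, Idh3b at 0.15 and Idh3g at 0.43. As CPM the summed producers turned to -0.13 (0.30 as FPKM) and the summed consumers moved to -1.13 (-0.67). Leaving out a library gave 6 to 7 lower members and -0.04 to 0.11 for the ratio of Slc25a11 to Ogdh, which turned to -0.0398 without AKG replicate 1.

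Same-numbered deviations of Control and AKG libraries correlated at 0.15, -0.02 and 0.04, and differently numbered ones at -0.11 to 0.06. With 3 libraries a group these values cannot settle whether the replicate numbers pair the libraries. The SE of Ogdhl was 0.117 with the replicate block and 0.311 without it. With the replicate block 7 members were lower and 1 higher, and no call on a member changed. Of 21 alternatives tested, the call on Idh1 was lost in 10 and that on Idh3g in 4. That on Ogdhl was lost in 2, with the atrial covariate (-1.44) and with AKG 2 alone (-1.66, where that library was assumed to vary like the Controls). The causes were not tested. With 3 libraries a group, the exact tests of ratios could not pass 0.05.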
